A study of Mus musculus with 36 samples.

Results

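The imprinted growth genes of the kidney were followed over the first week after birth. They were Igf2, Dlk1, Peg3, Mest, Plagl1, Peg10, Ndn, Cdkn1c, Grb10 and Zim1, 10 of the 20458 genes with a symbol in the count table, chosen by symbol. Where a gene has several RefSeq transcripts in the table, its transcript with the highest mean count was used. The libraries came from whole kidneys of C57BL/6 mice aged 1 day (P1), 3 days (P3) or 7 days (P7) after birth, in a Pkd1 and a Pkd2 model of polycystic kidney disease. KO kidneys were Pkd1 f/f:HoxB7-Cre or Pkd2 f/f:HoxB7-Cre, in which Cre recombinase is made in the collecting duct and deletes the floxed gene there. WT kidneys were those of Pkd1 f/f or Pkd2 f/f littermates of the same age without Cre, so the controls carry the floxed alleles too. Each of the 12 groups held 3 libraries. The study set these libraries beside miRNA libraries to find miRNAs and target genes that change together as cysts form.

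An imprinted gene is read from the copy inherited from only 1 parent, and the parental copies are told apart by DNA methylation laid down in the germ line. Many imprinted genes act on growth before birth. Genes read from the paternal copy, such as Igf2, often promote growth, and genes read from the maternal copy, such as Grb10 and Cdkn1c, often restrain it. A number of them are known to be switched down together in several organs after birth, as growth slows. In the mouse kidney new nephrons stop forming in the same days.

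The counts do not show every member equally well. Dlk1, a membrane protein related to Notch ligands, was listed at 0 on all 4 of its rows in all 36 libraries, and Peg10, a gene of retrotransposon origin, was listed at 0 on both of its rows. The reads had been counted on single transcripts, and the counting discards reads that fall on sequence shared by several transcripts of a gene. Among all genes, 15.3% of those with a single row were at 0, against 21.0% of those with 2 rows and 24.2% of those with 3 or more. A Dlk1 row with 64.2% of exon bases that no other transcript of the gene has, NM_001190705, was also at 0. The cause of the zeros was not tested, and no level is read from them. The 4 members with a single row, Peg3, Plagl1, Ndn and Zim1, had mean counts of 3058, 3428, 1173 and 181 per library. Of the others, the chosen row of Igf2 (mean count 186) holds 23.8% of exon bases that no other transcript of the gene has, that of Grb10 (119) 7.4%, that of Mest (28.7) 4.0% and that of Cdkn1c (10.6) 2.2%. For these 4 genes a change in the row may be a change of transcript form as well as of the gene. H19 and Meg3, the non-coding partners of Igf2 and Dlk1, have no row and were not analysed here.

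The libraries held 7179152 to 15850818 counts, the median being 13143336. Of 11 markers of the kidney epithelium, Slc34a1, Aqp2 and Nphs1 were among those present. Others read as absent, with 3 counts over all 36 libraries for Umod and 0 for Slc12a3, each with 2 rows, and the cause was not tested. At P7 the transcript of the deleted gene had a log2 difference between KO and WT of 0.10 in the Pkd1 model (edgeR, adjusted p = 0.556), which does not check the labels, and of -0.29 in the Pkd2 model (adjusted p = 0.0115). In these bulk samples, fewer cells of a type and less RNA per cell cannot be told apart.

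Some libraries stood apart. The 10 adrenal markers, which include Star, Cyp11a1 and Th, summed to 95561 counts in Pkd2 WT replicate 2 at P3, 32157 in Pkd1 KO replicate 1 at P7 and 22746 in Pkd2 KO replicate 3 at P7. In the other 33 libraries their normalized sum did not exceed 1176. The same Pkd2 WT library at P3 had the highest sum of the skeletal muscle markers, 2782 normalized counts against at most 286.6 in any other library. Y-linked genes had 3926 to 5041 counts in 18 libraries and at most 5 in the other 18. All 3 Pkd1 KO libraries at P1 lacked Y-linked counts and all 3 at P7 had them, and the same held in Pkd2 KO, so that age and Y-linked counts cannot be told apart in the KO kidneys of either model. In Pkd1 at P7 no WT library and all 3 KO libraries had them, so genotype and Y-linked counts cannot be told apart there. Counts of members are also given without the 3 libraries with over 10000 adrenal marker counts, a limit chosen after the data had been seen. The share of all transcripts called in such fits is not given here. A change in these counts is therefore not read as a result about the members.

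Peg3, Zim1, Plagl1 and Ndn have a single RefSeq transcript in the table, and their promoters are shown because their counts cover the whole gene and because Ndn took another course than the rest. Peg3 (chromosome 7, 6703892 to 6730462, mm10) and Zim1 (chromosome 7, 6674444 to 6696540) are neighbours on the minus strand, read from the paternal and the maternal copy. Plagl1 lies on chromosome 10 (13090832 to 13131694) and Ndn on chromosome 7 (62348277 to 62349928). The 250 bases before the start listed for each gene in the promoter table from RefSeq (GRCm38.p6, the assembly of mm10) are written 5′ to 3′ on the strand of the gene, with each CpG, the dinucleotide that carries the methyl mark, in capitals. For Peg3 and Zim1 the listed start lies inside the gene as given above, so part of each window overlaps it. The Ndn window lies inside the longer Ndn transcript of GENCODE (62346569 to 62350262).
Peg3, chr7:6730420-6730669, minus strand: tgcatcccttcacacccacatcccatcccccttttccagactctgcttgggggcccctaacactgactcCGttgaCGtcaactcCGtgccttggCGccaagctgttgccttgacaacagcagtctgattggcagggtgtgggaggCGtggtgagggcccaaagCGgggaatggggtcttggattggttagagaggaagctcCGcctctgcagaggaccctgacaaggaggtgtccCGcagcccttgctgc
Zim1, chr7:6696433-6696682, minus strand: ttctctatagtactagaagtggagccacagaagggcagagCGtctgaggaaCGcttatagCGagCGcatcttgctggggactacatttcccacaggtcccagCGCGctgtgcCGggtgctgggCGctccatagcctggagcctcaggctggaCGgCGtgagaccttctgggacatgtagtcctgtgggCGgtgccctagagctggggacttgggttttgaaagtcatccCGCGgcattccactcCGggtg
Plagl1, chr10:13090582-13090831, plus strand: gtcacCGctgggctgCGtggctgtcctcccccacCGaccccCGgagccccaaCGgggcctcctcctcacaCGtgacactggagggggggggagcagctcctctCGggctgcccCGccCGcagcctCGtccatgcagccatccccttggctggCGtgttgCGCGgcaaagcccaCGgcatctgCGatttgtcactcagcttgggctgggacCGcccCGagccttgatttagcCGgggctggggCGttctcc
Ndn, chr7:62348027-62348276, plus strand: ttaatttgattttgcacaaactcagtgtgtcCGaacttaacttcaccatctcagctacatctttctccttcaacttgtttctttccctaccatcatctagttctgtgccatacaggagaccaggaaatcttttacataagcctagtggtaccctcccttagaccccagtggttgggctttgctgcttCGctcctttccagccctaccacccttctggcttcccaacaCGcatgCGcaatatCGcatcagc
The windows hold 8 CpG in Peg3, 14 in Zim1, 19 in Plagl1 and 5 in Ndn, against a median of 6.0 over 32851 RefSeq promoter windows of the same length. The GC content was 60.4% in Peg3, 70.4% in Plagl1 and 47.2% in Ndn. The GC box GGGCGG, searched on both strands, was found in Zim1 and Plagl1 and in 32.7% of all windows. TATAAA was found in none of these 4 windows and in 12.4% of all windows. These are descriptions of sequence, and methylation was not measured in these libraries.

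In WT kidneys most of the members that could be tested fell between P1 and P7. Of the 8 with enough counts, 5 fell in the Pkd1 WT kidneys (Igf2, Mest, Peg3, Plagl1 and Zim1) and 5 in the Pkd2 WT kidneys (Igf2, Mest, Peg3, Plagl1 and Grb10), and none rose in either. A member is said to fall or rise where its adjusted p was under 0.05 in the quasi-likelihood test of edgeR, adjusted by Benjamini-Hochberg over all transcripts that could be tested. Over all transcripts, 9.03% were called lower and 8.92% higher in Pkd1 WT, and 11.3% lower and 7.95% higher in Pkd2 WT. The median log2 change of the 8 members was -1.20 in Pkd1 WT and -1.09 in Pkd2 WT, where the medians of all transcripts were 0.01 and -0.01. Without the Pkd2 WT library at P3 with adrenal markers, which shares in the estimate of spread, Ndn and Zim1 passed as well in the Pkd2 WT kidneys and the count was 7.

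**Figure D1:**
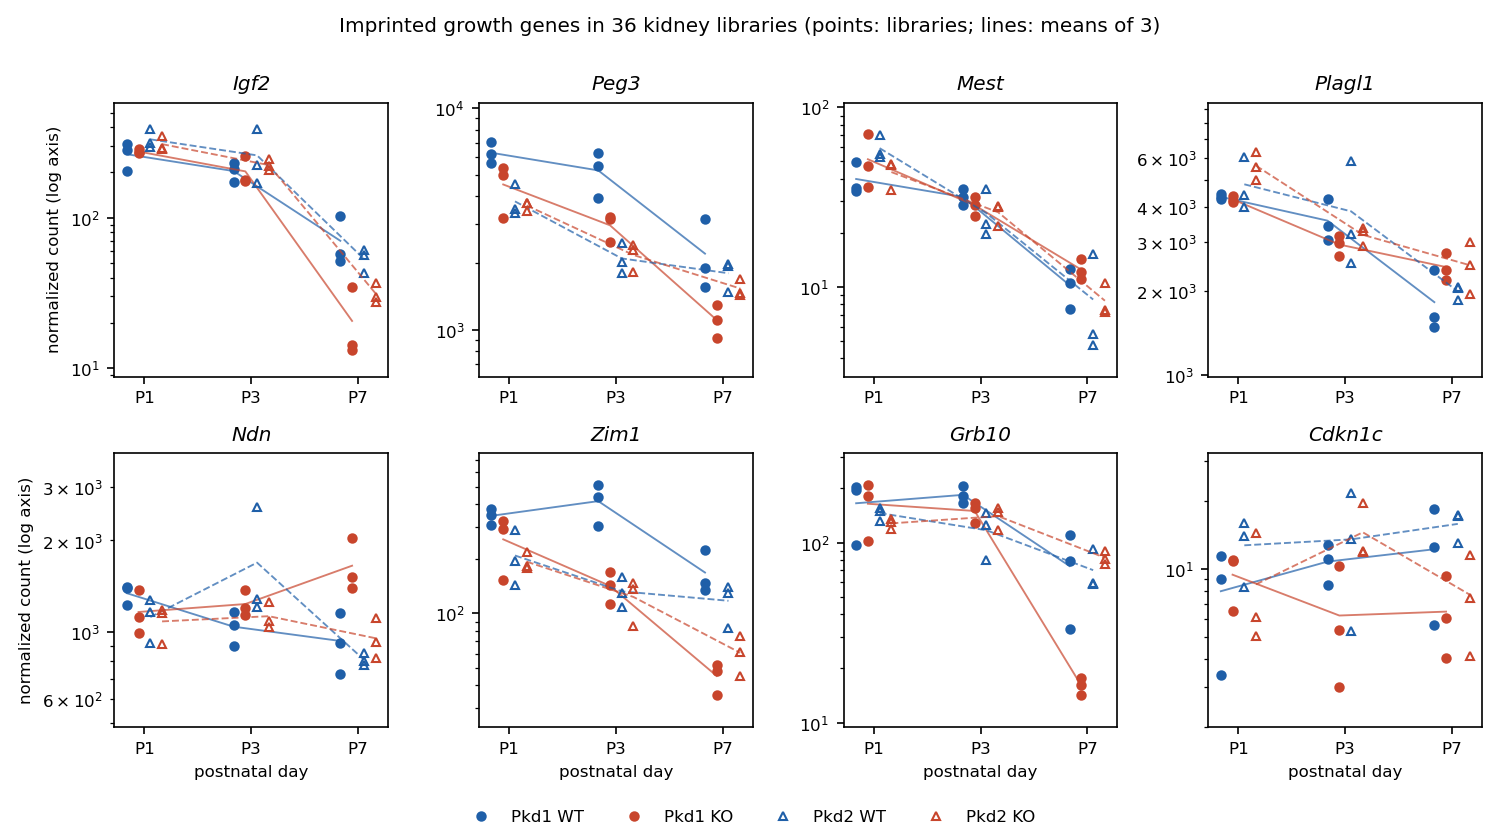
Normalized counts (log axis) of the 8 members with counts at P1, P3 and P7, with a point for each library and lines through the means of 3 libraries. Filled circles are the Pkd1 model, open triangles the Pkd2 model, blue WT and red KO. Igf2 fell from a mean of 265 to 70.2 in Pkd1 WT and from 276 to 20.6 in Pkd1 KO, while the groups of Cdkn1c overlapped between the ages.

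Igf2 (NM_010514, chromosome 7, 142650768 to 142666816), the insulin-like growth factor of the fetus, had 310, 281 and 204 normalized counts in the 3 Pkd1 WT kidneys at P1. It had 210, 174 and 230 at P3 and 51.2, 102 and 57.5 at P7. All 3 kidneys at P7 lay below all at P3 and P1, whereas P1 and P3 overlapped. In Pkd2 WT it had 297, 312 and 388 at P1, 170, 387 and 223 at P3, and 56.3, 42.7 and 60.9 at P7. The value of 387 belongs to the Pkd2 WT library with adrenal markers. The log2 change from P1 to P7 was -1.91 (SE 0.28, adjusted p = 0.00207 in edgeR's test) in Pkd1 WT and -2.66 (SE 0.30, adjusted p = 0.00126) in Pkd2 WT, a 3.77-fold and a 6.24-fold fall of the mean.

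Mest (NM_001252292, chromosome 6, 30733506 to 30748466) encodes a hydrolase-like protein and is known to favour growth of the embryo. Its row was low, so its values rest on few reads. The Pkd1 WT kidneys had 35.5, 34.4 and 49.8 normalized counts at P1 and 12.6, 10.6 and 7.54 at P7. The Pkd2 WT kidneys had 53.1, 54.8 and 69.8 at P1 and 15.3, 4.75 and 5.44 at P7. The ages did not overlap in either model. The log2 change was -1.95 (SE 0.35, adjusted p = 0.00444 in edgeR's test) in Pkd1 WT and -2.81 (SE 0.46, adjusted p = 0.00434) in Pkd2 WT. In Pkd1 WT, where 2 of 3 libraries at P1 and none at P7 had Y-linked counts, Mest and Zim1 did not pass once Y-linked counts were a term of the fit (adjusted p = 0.0977 and 0.14), and 3 members then fell. WT at P1 is the only Pkd1 group of mixed libraries, so in Pkd1 this term rests on replicate 2 there, which lacked Y-linked counts. It cannot tell whether the falls depend on Y-linked counts.

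Peg3, Zim1 and Plagl1 encode zinc-finger proteins that bind DNA, and Plagl1 is known to act on other imprinted genes. Peg3 had 6194, 7059 and 5631 normalized counts in the Pkd1 WT kidneys at P1 and 1901, 3152 and 1560 at P7. In Pkd2 WT it had 3501, 3347 and 4541 at P1 and 1976, 1938 and 1480 at P7. Neither model had overlapping ages. The log2 change was -1.51 (SE 0.25, adjusted p = 0.00334 in edgeR's test) and -1.10 (SE 0.16, adjusted p = 0.00295).

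Zim1, the neighbour of Peg3, had 306, 351 and 379 normalized counts in Pkd1 WT at P1, 510, 303 and 436 at P3, and 135, 222 and 147 at P7. Its ranges at P1 and P3 overlapped, and all 3 kidneys at P7 were lower. The Pkd2 WT kidneys had 194, 144 and 288 at P1 and 130, 140 and 82.6 at P7. The log2 change was -1.04 (SE 0.24, adjusted p = 0.0146 in edgeR's test) in Pkd1 WT and -0.85 (SE 0.28, adjusted p = 0.0663) in Pkd2 WT, which did not pass. Without Pkd1 WT replicate 1 at P7 the change in Pkd1 WT did not pass either (adjusted p = 0.0571).

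Plagl1 had 4261, 4456 and 4337 normalized counts in Pkd1 WT at P1 and 1622, 2375 and 1483 at P7. The Pkd2 WT kidneys had 4003, 4430 and 6040 at P1 and 2058, 1858 and 2076 at P7. The ages were apart in both models. The log2 change was -1.25 (SE 0.18, adjusted p = 0.00178 in edgeR's test) and -1.29 (SE 0.28, adjusted p = 0.0128). In Pkd2 WT it did not pass without replicate 3 at P1 or replicate 2 at P7 (adjusted p between 0.0524 and 0.0577).

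The members that restrain growth moved less evenly. Grb10 (NM_010345, chromosome 11, 11930499 to 12037428) encodes an adaptor that dampens signalling of the insulin and IGF receptors. It had 203, 195 and 97.3 normalized counts in Pkd1 WT at P1 and 79.0, 110 and 33.0 at P7, and these ranges overlapped. The Pkd2 WT kidneys had 132, 150 and 155 at P1 and 92.1, 58.8 and 59.8 at P7, without overlap. The log2 changes were close, -1.15 (SE 0.40, adjusted p = 0.0696 in edgeR's test) and -1.08 (SE 0.27, adjusted p = 0.0230), and the second passed. In Pkd1 WT it passed in 3 of 10 other settings, namely DESeq2 (adjusted p = 0.02), the replicate number as a block (0.0426) and 18 libraries in one fit, and in 2 of the 9 fits that each left out a library. In Pkd2 WT it did not pass in 4 of the 9 fits that each left out a library, namely without replicate 2 or 3 at P1 or at P7 (adjusted p between 0.0753 and 0.0842).

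Cdkn1c (NM_001161624, chromosome 7, 143458339 to 143461059), the cyclin-dependent kinase inhibitor p57, had 2.99 to 21.7 normalized counts over all 36 libraries. Its ages overlapped in both models, and its log2 changes in WT were 0.63 (SE 0.58, adjusted p = 0.483 in edgeR's test) and 0.29 (adjusted p = 0.721). With 3 to 21 counts per library, a change near its SE of 0.58 was not detectable at this depth. Ndn, a growth suppressor of the MAGE family known from neurons, had 1399, 1223 and 1402 normalized counts in Pkd1 WT at P1 and 919, 730 and 1153 at P7. In Pkd2 WT it had 918, 1165 and 1275 at P1 and 777, 853 and 804 at P7. Both models had every kidney at P7 below every kidney at P1, but the log2 changes of -0.52 (SE 0.16, adjusted p = 0.0503) and -0.49 (SE 0.26, adjusted p = 0.223) did not pass. The value in Pkd1 WT was at the limit and passed in 6 of 10 other settings, among them DESeq2 (adjusted p = 0.0209), but not with Y-linked counts as a term (adjusted p = 0.404), and in 1 of the 9 fits that each left out a library.

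Levels per kilobase of exon, a scale for comparing genes, depend on the exon length used, here that of GENCODE. For Ndn it was 3694 bases (62346569 to 62350262), reaching past both ends of the RefSeq gene (62348277 to 62349928). Reads were counted on RefSeq transcripts, so the values of Ndn may be too low, and its rank beside Plagl1 and Peg3 is not read. Plagl1 was above Peg3, and Zim1 was lowest. At P1 in Pkd1 WT Plagl1 and Peg3 had 827 and 724 normalized counts per kilobase, with 363 for Ndn and 44.9 for Zim1. At P7 the levels were 347 for Plagl1, 254 for Peg3, 253 for Ndn and 21.8 for Zim1. In Pkd2 WT the values at P1 were 917 for Plagl1, 437 for Peg3, 303 for Ndn and 27.1 for Zim1. At P7 they were 380, 207, 220 and 15.3 for the same genes.

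Most of the members that fell had the larger part of their change between P3 and P7, with Peg3 in Pkd2 WT as an exception. This span is also the longer in days, and a change per day was not computed. Mest in Pkd2 WT had log2 changes of -1.19 (SE 0.42) from P1 to P3 and -1.61 (SE 0.47) from P3 to P7. Between P1 and P3 no member passed in WT kidneys of either model, where 0.12% of transcripts were called in Pkd1 WT and 0.00792% in Pkd2 WT. None of the members had an unadjusted p under 0.05 in Pkd1 WT, beside 1478 of all 12527 transcripts, and 4 did in Pkd2 WT, beside 1890 of 12633. In DESeq2 Peg3 passed in Pkd2 WT (adjusted p = 0.000135). Between P3 and P7, 5 members fell in Pkd1 WT (Mest, Peg3, Plagl1, Igf2 and Zim1), with 5.54% of all transcripts called lower, and 4 fell in Pkd2 WT (Igf2, Mest, Plagl1 and Ndn), with 11.9% called lower. Igf2 had a log2 change from P3 to P7 of -1.55 (SE 0.28, adjusted p = 0.00990 in edgeR's test) in Pkd1 WT and -2.30 (SE 0.30, adjusted p = 0.00187) in Pkd2 WT. Peg3 differed in its course, with a log2 change of -0.25 from P1 to P3 and -1.26 from P3 to P7 in Pkd1 WT against -0.85 and -0.25 in Pkd2 WT. Zim1, which did not pass from P1 to P7 in Pkd2 WT, had 129, 159 and 108 normalized counts there at P3, with a log2 change of -0.66 (SE 0.28) from P1 to P3 and -0.19 (SE 0.29) from P3 to P7. With Y-linked counts as a term, no member passed between P3 and P7 in Pkd1 WT, where all 3 libraries at P3 and none at P7 had them. The difference of the P1 to P7 change between the 2 lines of WT mice was called in no transcript (0.0% of 12564, with 517 at an unadjusted p under 0.05). For Igf2 that difference was 0.74 (SE 0.42) and for Mest 0.84 (SE 0.56) on the log2 scale.

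KO kidneys followed the fall, with age and Y-linked counts inseparable in them. In Pkd1 KO 6 members fell from P1 to P7, namely Igf2, Grb10, Zim1, Peg3, Mest and Plagl1, and Ndn rose. In Pkd2 KO the same 6 symbols fell and none rose. Over all transcripts 20.7% were called lower and 21.2% higher in Pkd1 KO, and 11.9% lower and 14.2% higher in Pkd2 KO. The median log2 change of the 8 members was -2.03 in Pkd1 KO and -1.22 in Pkd2 KO, beside 0.01 and -0.01 over all transcripts. Without the adrenal marker libraries 6 members passed in Pkd1 KO, the same ones that fell, and 5 in Pkd2 KO, where Grb10 did not (adjusted p = 0.065).

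**Figure D2:**
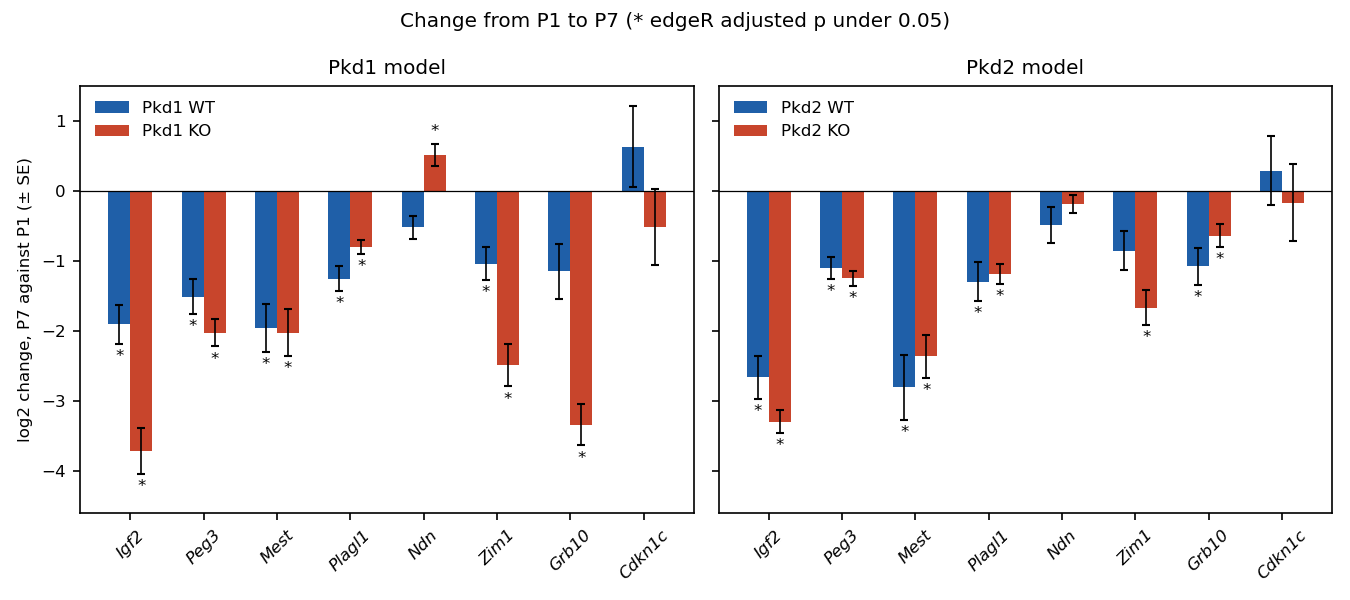
Log2 change from P1 to P7 (vertical axis) of the 8 members tested in WT (blue) and KO (red) kidneys of each model, with error bars of 1 SE and a star where the adjusted p of edgeR's test was under 0.05. The bars of Igf2, Grb10 and Zim1 were longer in Pkd1 KO than in Pkd1 WT, and Ndn was positive in Pkd1 KO only, at 0.51.

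Igf2 fell furthest. Its normalized counts in Pkd1 KO were 286, 269 and 272 at P1, 177, 257 and 177 at P3, and 13.1, 14.2 and 34.4 at P7. The Pkd2 KO kidneys had 289, 349 and 288 at P1, 206, 244 and 222 at P3, and 29.5, 37.1 and 27.5 at P7. At P7 the raw counts behind these values were 13 to 37 per library. The log2 change was -3.72 (SE 0.33, adjusted p = 2.8e-05 in edgeR's test) in Pkd1 KO and -3.30 (SE 0.17, adjusted p = 1.24e-06) in Pkd2 KO, a 13.4-fold and a 9.85-fold fall of the mean.

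Grb10 had 181, 209 and 103 normalized counts in Pkd1 KO at P1, 156, 166 and 128 at P3, and 14.2, 16.2 and 17.6 at P7. The 3 kidneys at P7 agreed closely and lay far below the rest. In Pkd2 KO it had 118, 129 and 136 at P1 and 89.5, 81.3 and 76.2 at P7. The log2 change was -3.34 (SE 0.30, adjusted p = 2.96e-05 by edgeR) in Pkd1 KO, a 10.3-fold fall of the mean, and -0.64 (SE 0.17, adjusted p = 0.0192) in Pkd2 KO. The fall in Pkd2 KO did not pass in 4 of the 9 fits that each left out a library, those without replicate 2 or 3 at P1 or at P7 (adjusted p between 0.051 and 0.0658).

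Zim1 and Peg3 both fell in KO kidneys of both models. Zim1 had 292, 324 and 153 normalized counts in Pkd1 KO at P1 and 35.4, 51.8 and 48.3 at P7, a log2 change of -2.49 (SE 0.30, adjusted p = 0.000157 in edgeR's test). The Pkd2 KO kidneys had 217, 178 and 183 at P1 and 45.3, 75.2 and 61.4 at P7, a log2 change of -1.67 (SE 0.25, adjusted p = 0.00104). Peg3 went from 4994, 5382 and 3205 to 920, 1293 and 1102 in Pkd1 KO and from 3743, 3440 and 3730 to 1440, 1700 and 1461 in Pkd2 KO. In Pkd1 KO the library with the lowest Peg3 at P1, replicate 3, was also the lowest in Zim1. The log2 change of Peg3 was -2.03 (SE 0.19, adjusted p = 4.56e-05) in Pkd1 KO and -1.25 (SE 0.10, adjusted p = 3.03e-05) in Pkd2 KO.

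Mest fell in KO kidneys by amounts near those in WT, and Plagl1 had a smaller fall in Pkd1 KO than in Pkd1 WT. Mest had a log2 change of -2.03 (SE 0.34, adjusted p = 0.000979 in edgeR's test) in Pkd1 KO and -2.36 (SE 0.31, adjusted p = 0.000438) in Pkd2 KO. Plagl1 had -0.80 (SE 0.10, adjusted p = 0.000165) and -1.18 (SE 0.14, adjusted p = 0.000249), beside -1.25 in Pkd1 WT and -1.29 in Pkd2 WT. The difference in Pkd1, 0.45 (SE 0.21), did not pass (adjusted p = 0.191 in edgeR's test). Cdkn1c had -0.51 and -0.17, and neither passed.

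Ndn took the other direction in Pkd1 KO. It had 1371, 994 and 1124 normalized counts at P1, 1135, 1198 and 1375 at P3, and 2041, 1519 and 1397 at P7. All 3 kidneys at P7 were above all 3 at P1, and the log2 change was 0.51 (SE 0.16, adjusted p = 0.0217 in edgeR's test). The highest value belongs to the Pkd1 KO library with adrenal markers, and without this library the change was 0.33 (adjusted p = 0.0792) and failed the test. The same held without replicate 2 or without replicate 3 at P1 (adjusted p between 0.0505 and 0.0878 over these 3 fits). In Pkd2 KO, Ndn had a log2 change of -0.19 (adjusted p = 0.317).

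**Figure D3:**
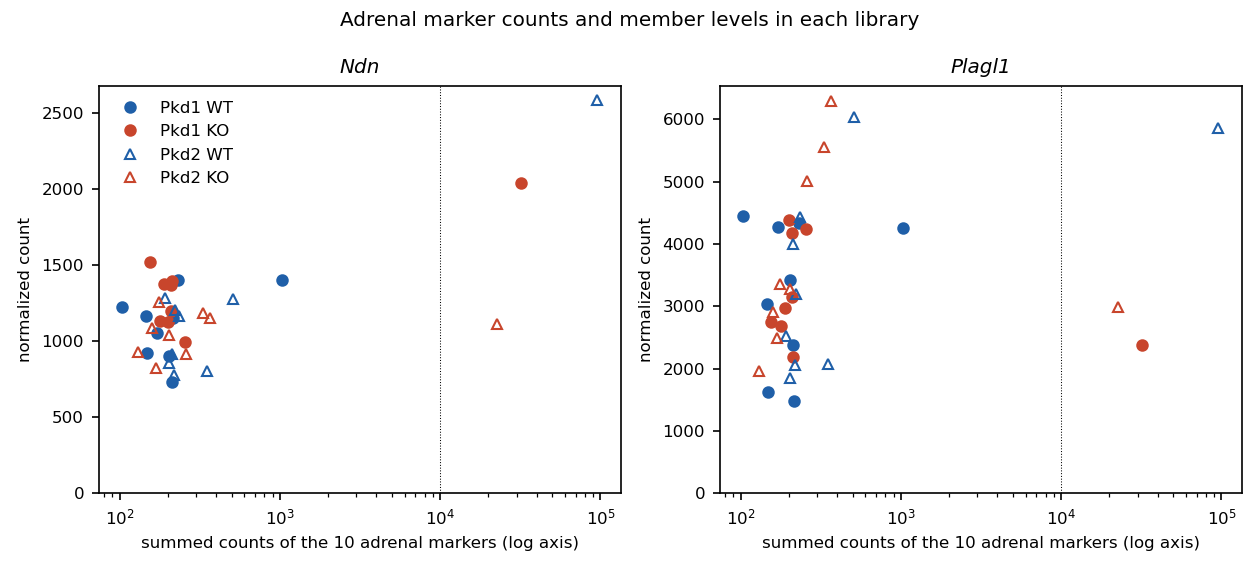
Normalized counts of Ndn and Plagl1 (vertical axes) against the summed counts of the 10 adrenal markers (horizontal axis, log scale), with a point for each of the 36 libraries and a dotted line at 10000 counts. The 3 libraries to the right of the line hold the highest values of Ndn, 2583 and 2041, and a value of 1110.

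Of the 3 libraries with adrenal markers, each had the highest Ndn of its group: 2583 against 1204 and 1286 in Pkd2 WT at P3, 2041 against 1519 and 1397 in Pkd1 KO at P7, and 1110 against 928 and 824 in Pkd2 KO at P7. Plagl1 was the highest of its group in the first and the last, with 5860 against 3204 and 2518, and 2990 against 1959 and 2485. In Pkd1 KO at P7 the library with adrenal markers had 2380 for Plagl1, between the other values of 2749 and 2190. The part of adrenal tissue in these values was not tested.

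No member passed between KO and WT at P1 or P3 in edgeR's test. Some groups did not overlap, but how many of all transcripts did so was not counted. No result is therefore read from a lack of overlap alone, here or elsewhere. None passed at P1, where 0.0% of transcripts were called in either model, and none at P3, where 0.00798% were called in Pkd1 and 0.0% in Pkd2. At an unadjusted p under 0.05 there was 1 member at P1 and 3 at P3 in Pkd1, beside 157 and 1748 of all 12527 transcripts, and 0 at both ages in Pkd2, beside 708 and 565 of 12633. In Pkd1 at P3, Zim1 had 144, 169 and 113 normalized counts in KO against 510, 303 and 436 in WT, with no overlap. Peg3 had 3156, 3232 and 2493 in KO against 6305, 3917 and 5500 in WT, also with no overlap. The log2 differences were -1.55 (SE 0.22, adjusted p = 0.152 in edgeR's test) for Zim1 and -0.83 (SE 0.17, adjusted p = 0.152) for Peg3, and both passed in DESeq2 (adjusted p = 1.83e-09 and 5.87e-05). All 6 of these kidneys had Y-linked counts. Igf2 had a log2 difference of -0.01 (adjusted p = 0.987) there. In Pkd1 at P1 the Peg3 values in KO, 3205 to 5382, also lay below those in WT, 5631 to 7059, with a log2 difference of -0.48 (SE 0.19). In Pkd2 at P1 the Mest values in KO, 34.8 to 48.5, lay below those in WT, 53.1 to 69.8, with a log2 difference of -0.44 (SE 0.24).

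At P7, 4 members were lower and 1 was higher in Pkd1 KO than in Pkd1 WT kidneys. Zim1, Grb10, Igf2 and Peg3 were lower and Ndn was higher, where 7.14% of all transcripts were called lower and 6.32% higher. No member passed in Pkd2, where 6.17% of transcripts were called lower and 7.88% higher. The median log2 difference of the 8 members was -0.94 in Pkd1 and -0.13 in Pkd2, beside 0.00 over all transcripts in both. The Pkd1 kidneys at P7 are those in which genotype and Y-linked counts cannot be told apart. In Pkd1 the count was 1, with Zim1 alone, without the library with adrenal markers, and 2, with Zim1 and Peg3, when the replicate number was a block. The shares of all transcripts called in these fits are not given here, so a loss of power cannot be told apart.

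**Figure D4:**
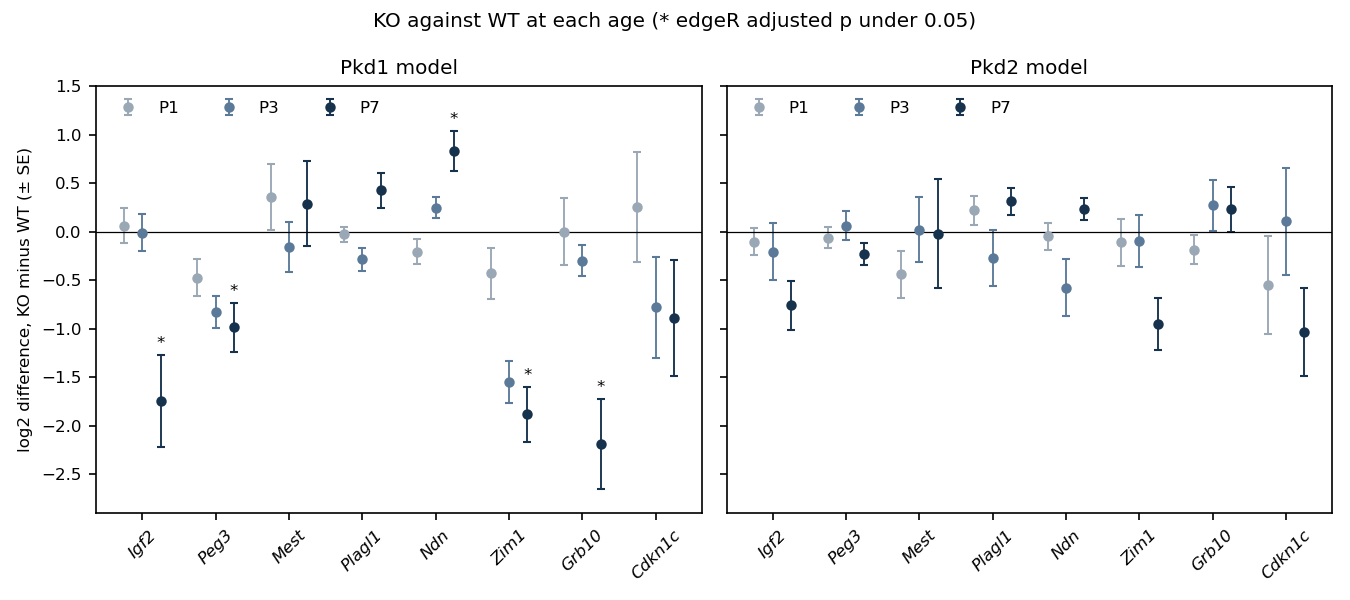
Log2 difference between KO and WT kidneys (vertical axis) of the 8 members at P1, P3 and P7 in each model, with error bars of 1 SE and a star where the adjusted p of edgeR's test was under 0.05. In Pkd1 Zim1 went from -0.43 at P1 to -1.55 at P3 and -1.89 at P7, and in Pkd2 no difference passed.

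Zim1 was the member whose difference at P7 depended least on single libraries. Its values at P7 were 35.4, 51.8 and 48.3 in Pkd1 KO and 135, 222 and 147 in Pkd1 WT, and the log2 difference was -1.89 (SE 0.28, adjusted p = 0.0108 in edgeR's test). It passed in all 6 fits that each left out a library, with log2 differences from -2.02 to -1.64. In Pkd2 it had 45.3, 75.2 and 61.4 in KO and 130, 140 and 82.6 in WT, which did not overlap. That log2 difference of -0.95 (SE 0.27) was just past the limit (adjusted p = 0.0514) and passed in DESeq2 (adjusted p = 0.0125).

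Igf2 was lower in all KO kidneys than in all WT kidneys at P7 in both models. In Pkd1 the KO values of 13.1, 14.2 and 34.4 stood against 51.2, 102 and 57.5, a log2 difference of -1.75 (SE 0.48, adjusted p = 0.0465 by edgeR). In Pkd2 the KO values of 29.5, 37.1 and 27.5 stood against 56.3, 42.7 and 60.9, a log2 difference of -0.76 (SE 0.26, adjusted p = 0.0866). The KO value of 34.4 in Pkd1 was well above the other KO values. In Pkd1 it did not pass without replicate 1 or 2 of either genotype (adjusted p between 0.103 and 0.154).

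Grb10 had 14.2, 16.2 and 17.6 normalized counts in Pkd1 KO and 79.0, 110 and 33.0 in Pkd1 WT at P7, without overlap. The log2 difference was -2.19 (SE 0.47, adjusted p = 0.0246 in edgeR's test), the largest of the 8 members in size, and it passed in 1 of the 6 fits without a library, the one without WT replicate 3 (adjusted p between 0.0562 and 0.0976 in the others). In Pkd2 it had 89.5, 81.3 and 76.2 in KO and 92.1, 58.8 and 59.8 in WT, which overlapped, with a log2 difference of 0.23 (adjusted p = 0.559). The difference between the models was -2.41 (SE 0.53) on the log2 scale and did not pass over all transcripts (adjusted p = 0.121), where 0.0% of 12241 were called and 2110 had an unadjusted p under 0.05. It passed in DESeq2 (adjusted p = 0.00486), where no other member did.

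Peg3 had 920, 1293 and 1102 normalized counts in Pkd1 KO and 1901, 3152 and 1560 in Pkd1 WT at P7. The log2 difference of -0.99 (SE 0.25, adjusted p = 0.0385 in edgeR's test) passed in 1 of the 6 fits without a library, the one without WT replicate 3 (adjusted p between 0.0504 and 0.114 in the others). In Pkd2 the log2 difference was -0.23 (adjusted p = 0.234). Ndn had a log2 difference of 0.83 (SE 0.20, adjusted p = 0.0362) in Pkd1 and 0.23 (adjusted p = 0.211) in Pkd2. In Pkd1 it did not pass without replicate 1 or 2 of either genotype (adjusted p between 0.0703 and 0.122). Plagl1 had 0.42 (adjusted p = 0.141) in Pkd1 and 0.31 (adjusted p = 0.177) in Pkd2, and Mest 0.29 (adjusted p = 0.677) in Pkd1. Cdkn1c had log2 differences of -0.89 (SE 0.60, adjusted p = 0.326) in Pkd1 and -1.03 (SE 0.45, adjusted p = 0.171) in Pkd2, where its KO values of 11.6, 4.12 and 7.41 lay below its WT values of 17.4, 17.1 and 13.1.

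The difference of the falls was then tested itself, as the P1 to P7 change in KO minus that in WT. In Pkd1 3 members fell further in KO, with log2 differences of -2.20 for Grb10 (SE 0.54, adjusted p = 0.0227 in edgeR's test), -1.81 for Igf2 (SE 0.44, adjusted p = 0.0231) and -1.46 for Zim1 (SE 0.40, adjusted p = 0.0343). Ndn differed in the other direction by 1.03 (SE 0.24, adjusted p = 0.0185). Over all transcripts 4.1% were called lower and 3.66% higher. In Pkd2 no member passed, where 0.174% of transcripts were called lower and 1.12% higher. The values there were -0.84 for Zim1, -0.65 for Igf2 and 0.42 for Grb10. For Peg3, Plagl1 and Mest the difference in Pkd1 was -0.52, 0.45 and -0.08 and none passed. The KO and WT kidneys at P7 enter this test and the one at P7 alone, so the 2 are not independent.

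These calls in Pkd1 depended on single libraries, and none passed with a term for Y-linked counts. Ndn passed in 11 of the 12 fits that each left out a library, Igf2 and Grb10 in 7 and Zim1 in 4. Without the library with adrenal markers only Ndn passed (0.86, adjusted p = 0.0469), with Grb10 at -2.10 (adjusted p = 0.0528), Igf2 at -1.57 (adjusted p = 0.0556) and Zim1 at -1.30 (adjusted p = 0.0801). With Y-linked counts as a term none passed, at -1.57 for Grb10, -1.60 for Igf2, -1.40 for Zim1 and 0.70 for Ndn (adjusted p between 0.88 and 0.885). That term rests on Pkd1 WT replicate 2 at P1, the library with 7179152 counts. The fit therefore cannot tell whether the calls depend on Y-linked counts.

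Other imprinted genes fell in part. Of 34 further imprinted genes, 27 were in the table and 16 could be tested in Pkd1 WT, of which 5 fell and 2 rose from P1 to P7, with a median log2 change of -0.40. In Pkd2 WT 6 of 17 fell and 1 rose, with a median of -0.38. Those with the largest change in both were Asb4, a ubiquitin ligase adaptor, with log2 changes of -1.82 and -2.56, Copg2, a coatomer subunit, with -1.47 and -1.44, and the amino acid transporter Slc38a4, with -1.56 and -1.34. Copg2 (chromosome 6, from 30747554) overlaps the end of Mest (to 30748465) on the other strand. Reads of these overlapping genes may not be told apart, and the part of Mest reads in the Copg2 counts was not tested. Mkrn3 (0.23 and -0.32) and Nap1l5 (0.01 and 0.23) had the smallest changes. Between KO and WT at P7, 1 of the 16 was lower in Pkd1, and in Pkd2 Gnas was lower (log2 difference -0.62, adjusted p = 0.0254 in edgeR's test) and Slc38a4 higher (0.95, adjusted p = 0.0315). Over all transcripts 7.14% were called lower in Pkd1, and 6.17% lower and 7.88% higher in Pkd2. The counts here are near these shares and are not read as a result about the list. The Gnas row used, 1 of 10 of the gene, holds 53.1% of exon bases that no other transcript of the gene has.

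**Figure D5:**
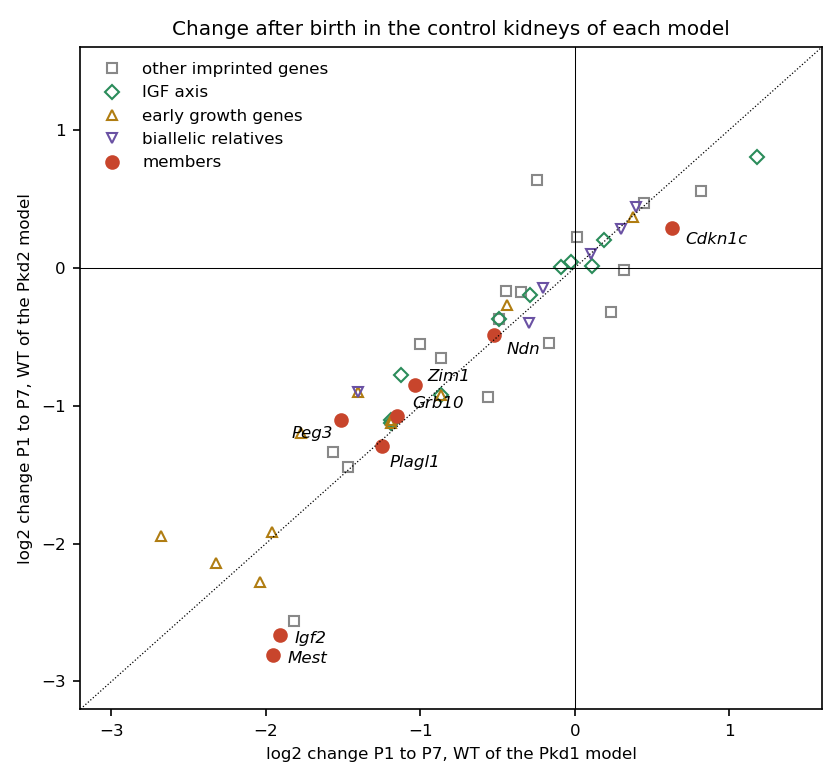
Log2 change from P1 to P7 in Pkd1 WT (horizontal axis) and Pkd2 WT (vertical axis) kidneys of the members (filled circles) and of genes from 4 other lists tested in both models, with the dotted line marking equal change. Igf2 and Mest lie lowest among the members, at -1.91 and -2.66 and at -1.95 and -2.81, and Cdkn1c is to the right of 0.

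Genes that act with Igf2 fell in part. Of 14 genes of the IGF axis, 5 of 12 tested fell in Pkd1 WT and 5 of 11 in Pkd2 WT, the same 5 genes, and none rose. The largest changes were those of Igf2bp2 (-1.19 and -1.13) and Igf2bp3 (-1.19 and -1.10), which bind Igf2 mRNA, and of the receptor substrate Irs2 (-1.13 and -0.78). Pik3ca, a catalytic subunit of the kinase that acts after these receptors, had log2 changes of -0.09 and 0.01. Igf1, the growth factor of later life, was listed at 0 on its 4 rows.

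Relatives of the members, most of them read from both parental copies, changed in both directions. Of 10 such genes 6 were tested, of which 1 fell in Pkd1 WT, and 2 fell and 2 rose in Pkd2 WT, with medians of -0.05 and -0.02. Plag1 fell in both, with -1.41 and -0.90, while Plagl2, also a relative of Plagl1, had -0.30 and -0.40. Grb7 (0.10 and 0.10) and Grb14 (0.40 and 0.44), relatives of Grb10, had small or positive values. Cdkn1b, the relative of Cdkn1c, had 0.30 and 0.28. Maged1, of the family of Ndn, had -0.21 and -0.14, but it lies on the X chromosome.

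Most genes known for growth of the early organ fell. This list shares genes with those above, among them Igf2bp2, Igf2bp3 and Plag1, so the counts of the lists are not independent. Of 15 such genes, 11 of 12 tested fell in Pkd1 WT and 8 of 11 in Pkd2 WT, with medians of -1.59 and -1.13. They were led by Hmga2 (-2.32 and -2.14), Mycn (-2.04 and -2.28) and Sox11 (-1.96 and -1.92), and Eed and Sox4 changed least. Of 10 proliferation genes tested, 9 fell in WT of each model, among them Ccnb1 (-1.22 and -1.43). At P7, 5 of these 10 were higher in Pkd1 KO than in WT and 9 of 10 in Pkd2 KO. Over all transcripts 6.32% were called higher in Pkd1 and 7.88% in Pkd2. In Pkd1 these were the same kidneys in which Igf2, Grb10, Zim1 and Peg3 were lower, while in Pkd2 no member passed. A link between the 2 was not tested.

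Markers of cell types moved with age as well. Of 5 markers of nephron progenitors tested, 3 fell in WT of each model, with log2 changes of -7.50 and -9.27 for Six2. No stromal marker of 5 and no endothelial marker of 3 passed in WT of either model, and 3 of 6 macrophage markers rose in Pkd1 WT and 1 of 6 in Pkd2 WT. No adipocyte or skeletal muscle marker passed in WT of either model, 1 of 4 erythroid markers rose in Pkd1 WT and 0 of 5 passed in Pkd2 WT, and 1 of 5 adrenal markers fell in Pkd1 WT and 0 of 8 in Pkd2 WT. At P7 the summed macrophage markers were 4425 to 5329 normalized counts in Pkd1 KO against 2732 to 3941 in WT, and 4648 to 6192 in Pkd2 KO against 2928 to 3438 in WT. Of 9 tested markers of kidney epithelium, 3 were lower in KO at P7 in each model and none was higher. The summed erythroid markers did not overlap at P7, with 235 to 424 normalized counts in Pkd1 KO against 731 to 1252 in WT and 434 to 560 in Pkd2 KO against 818 to 970 in WT. Nor did the endothelial markers, with 6032 to 7322 against 7800 to 9246 in Pkd1 and 6934 to 7995 against 9325 to 9890 in Pkd2. The part of these cell types in the values of the members was not tested.

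Across the 12 group means most of the members shared much of their course, which is a description over groups that differ mainly in age. Pearson's r was 0.949 between Peg3 and Zim1, 0.922 between Mest and Plagl1, 0.887 between Igf2 and Mest and 0.869 between Igf2 and Grb10. Ndn and Cdkn1c stood apart, with r between -0.434 and 0.341 for Ndn and between -0.434 and 0.205 for Cdkn1c to the other members. Of 8791 other transcripts with a mean count of at least 100, those with a course closest to Igf2 over the 12 group means were Shisa2 (r = 0.970), Gstm7 (0.967), Kcnj8 (0.964), Slit1 (0.964) and Alcam (0.962). Shisa2 had log2 changes from P1 to P7 of -1.87 in Pkd1 WT and -1.68 in Pkd2 WT. To the mean course of the members tested, Shisa2 (0.979), Tlcd4 (0.979), Reln (0.977), Adcy2 (0.976) and Aox3 (0.972) were closest.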

How the data were processed

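Total RNA of 36 kidneys was sequenced by the authors on a HiSeq instrument. They aligned the reads with TopHat 2.1.0 to mm10 (CASAVA 1.8.2 is also named in the submitters' processing notes), counted reads per RefSeq transcript by HTSeq in its default mode, and the authors deposited these raw counts. Their filter and TMM scaling are not in the table. The default mode of HTSeq counts reads by strand, but whether the libraries kept strand is not given in the sources used here, so reads of overlapping antisense genes may not be told apart. Symbols were found for 28978 of 29996 rows through a RefSeq table of GRCm38.p6.

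A transcript was tested if 3 or more of a model's 18 libraries had 10 or more counts (12527 in Pkd1, 12633 in Pkd2). The quasi-likelihood test of edgeR was run with TMM scaling, and p-values were adjusted by Benjamini-Hochberg at 0.05. Age was tested in the 9 WT or 9 KO libraries of a model, genotype in the 6 of an age, and the difference of the falls in all 18. SE is the log2 change over the square root of F. Normalized counts were scaled within a model. The named genes are all members and, of every other list, at most the 3 called in WT of both models with the largest change and the 2 with the smallest, with the relatives of members. Gnas, Star, Cyp11a1, Th, Umod, Slc12a3, H19 and Meg3 were named outside this rule, after values were seen. A gene that the rule names is not reported here. Members, lists and tests were chosen with earlier results of these data known. The alternatives were DESeq2 1.42.0, other scalings and filters, the replicate number as a block, transcripts of a gene summed, Y-linked counts as a covariate, a fit of all 18 libraries, leaving out each library and, added after the data had been seen, leaving out the 3 libraries with over 10000 adrenal marker counts.

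The steps were tested on simulated data. The tools were edgeR 4.0.16 in R 4.3.3, and pandas 2.3.3 and matplotlib 3.10.9 in Python 3.11.15. The labels give the replicate numbers but do not say whether mice share a litter. The p-values set a change against the spread between libraries of a group. What all libraries of a group share, such as a litter, would not be part of that spread. Same-numbered KO and WT libraries deviated together in all 3 pairs at P1 in Pkd1 (correlations 0.328, 0.182 and 0.492) and in no other age or model, and there the block called 0 members, as did the fit without it.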

Additional observations from a re-analysis of the deposited data

Results flagged for a closer look

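In the Pkd1 model the change from P1 to P7 differed between KO and WT kidneys for 4 members in edgeR's interaction test, and these are worth a closer look. The difference, KO minus WT on the log2 scale, was -2.20 for Grb10, -1.81 for Igf2, -1.46 for Zim1 and 1.03 for Ndn. None of the 4 passed with Y-linked counts as a term, which rests on Pkd1 WT replicate 2 at P1 and so decides little. Only Ndn passed without the Pkd1 KO library with adrenal markers. All 3 Pkd1 KO kidneys at P7 had Y-linked counts and none of the Pkd1 WT kidneys did, so genotype and Y-linked counts cannot be told apart at that age. The values of Grb10 rest on 14 to 19 raw counts per KO library at P7, and those of Igf2 on 13 to 37. In Pkd2 the same differences were 0.42 for Grb10, -0.65 for Igf2, -0.84 for Zim1 and 0.28 for Ndn, and none passed.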

How the results depend on the processing

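Over 712 fits of single members under other settings, 663 kept their direction and side of the threshold, 18 no longer passed, 25 newly passed and 6 changed sign. Over 624 fits that each left out a library the numbers were 544, 51, 12 and 17. The falls of Igf2 and Peg3 from P1 to P7 passed in all 9 fits without a library in WT and in KO of both models. With Y-linked counts as a covariate the number of members called was 3 in Pkd1 WT from P1 to P7, 0 from P3 to P7 and 0 for the difference of the falls in Pkd1, and 2 between KO and WT at P7 in Pkd2. In Pkd1 that covariate rests on WT replicate 2 at P1. It could not be fitted for 4 comparisons, the P1 to P7 change in KO of either model and KO against WT at P3 and at P7 in Pkd1. With DESeq2 the number was 2 between KO and WT at P3 in Pkd1 (1 without the low-count filter), 1 from P1 to P3 in Pkd2 WT (1 also with 18 libraries in one fit), 1 for the difference of the KO effect between models, and 1 between KO and WT at P7 in Pkd2. RLE factors, library totals, no filter, 10 counts in every library and 18 libraries in one fit also gave 1 there. Without the adrenal marker libraries it was 1 between KO and WT at P7 and 1 for the difference of the falls in Pkd1. Leaving out a library gave 4 to 6 members in Pkd1 WT from P1 to P7, 2 to 6 from P3 to P7, 0 to 2 between KO and WT at P3, 1 to 5 at P7 and 0 to 4 for the difference of the falls. In Pkd2 it gave 3 to 7 in WT from P1 to P7, 1 to 4 from P3 to P7 and 0 to 2 between KO and WT at P7, and 0 to 3 for the difference between models. The cause was not tested.

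Signs changed only in values that had not passed. Igf2 between KO and WT at P3 in Pkd1 was 0.0011 without the filter and -0.205 to 0.0895 without a library. Mest was 0.0089 for the difference of the falls in Pkd1 without the adrenal marker libraries and -0.28 to 0.23 without a library. Between KO and WT at P7 in Pkd2, Mest was 0.0719 with the replicate block, 0.0364 with rows summed, 0.0681 without the adrenal marker libraries and -0.32 to 0.71 without a library. Plagl1 was -0.0509 for the difference of the falls in Pkd2 without the adrenal marker libraries and -0.10 to 0.25 without a library. Cdkn1c was -0.58 to 0.44 from P1 to P7 in Pkd2 KO and -0.88 to 0.14 for the difference of the falls in Pkd2 without a library.

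With library totals alone, 1979 transcripts fell and 1500 rose from P1 to P7 in Pkd2 KO, against 1498 and 1794 with TMM factors. With the replicate number as a block, 2 members passed between KO and WT at P7 in Pkd1 in place of 5, and other counts stayed within 1.5 times. Same-numbered KO and WT libraries had correlations of deviations from -0.182 to 0.492 over 18 pairs, 6 of them over 0.1, and pairing was not shown beyond P1 in Pkd1. Counts of Cdkn1c and Mest, of Igf2 in KO at P7 and of Grb10 in Pkd1 KO at P7 were low enough that smaller changes could not be detected.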
